A study of Mus musculus with 4 samples.

Results

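The 10 genes described here encode acute phase and complement proteins: the serum amyloids Saa1, Saa2 and Saa3, haptoglobin (Hp), haemopexin (Hpx), orosomucoid 1 (Orm1), the pentraxins Crp and Apcs, lipopolysaccharide binding protein (Lbp) and complement component C3. Members were the non-control rows of the array annotation that carry these gene names, and they comprised 11 probes in 20 spots, out of 36161 gene names and 55681 probes. No member probe carried an outlier flag, and all 10 genes matched RefSeq by symbol and accession. Agilent arrays, read in 1 colour (Cy3) with a 60 base probe in each spot, measured total liver RNA. There were 4 groups with 1 array each: females and males of control weight (CF and CM), and microsomic females and males (MF and MM). Microsomic (M) mice were littermates whose birth weight fell in the lowest decile of the colony, and control (C) mice were littermates of ordinary birth weight. All groups were whole liver, with no treatment, of an inbred strain, C57BL/6J at embryonic day 20 by the labels and newborn C57BL/6 N by the methods of the study. The methods describe 3 replicates a group, whereas the data used here hold 1 array of each, and whether an array carries RNA of 1 mouse or of a pool was not stated. There was therefore no replicate error: a difference between 2 arrays carries no p-value and was set against the spread between repeated spots. The M arrays lay in one column of the slide and the C arrays in another, so the position on the slide and the group cannot be told apart. Both female arrays lay in one row and both male arrays in another, so position and sex cannot be told apart either.

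The acute phase response is the change in plasma protein output that the liver makes after infection or injury. Interleukin 6, acting through STAT3, and interleukin 1, acting through NF-kappaB and C/EBP factors, raise transcription of the positive acute phase genes in hepatocytes. The positive acute phase proteins include the serum amyloids and the haemoglobin and haem scavengers, while albumin and transthyretin belong to the negative ones. In mice the serum amyloids and Apcs are major reactants, Crp reacts weakly, and C3 is the protein on which all complement pathways converge.

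The probes set what was measured, so the first 30 bases of the 60 are shown, 5′ to 3′, for the members past 1.5-fold between M and C in at least 1 sex, with both C3 probes. Their positions on mm9 come from the annotation of the array. The Saa1 probe lies at chr7:53996070-53996129 on the minus strand, the Saa3 probe at chr7:53970389-53970448 on the minus strand, the Saa2 probe at chr7:54009622-54009681 on the plus strand, the Crp probe at chr1:174629343-174629402 on the plus strand, and the C3 probes at chr17:57343416-57343475 and chr17:57343678-57343737 on the minus strand. The Lbp probe is placed at chr2:158154142-158157684 and the Orm1 probe at chr4:63006483-63007090, both on the plus strand, spans of 3543 and 608 bases, longer than the probe itself. Whether each probe lies in coding or untranslated sequence was not analysed here.
Saa1: gcagtggcaaagaccccaattactacagac
Saa3: ttctttgcatcttgatcctgggagttgaca
Saa2: ttactcgagcagtagtaactgcttgaggag
Crp: cccactaggactctaccaaagagaatctga
Lbp: acttccagatccgcaaggacttcttatact
Orm1: catctaggattccagagagaaaatgggacc
C3, probe in 10 spots: attcacagaatctatggtggtttatggttg
C3, probe in 1 spot: tgcagaaagggaagaagtacctcatgtggg

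Promoters of 300 bases (250 before and 50 after the start site) were held for 7 members in the RefSeq table of GRCm38.p6: Saa1, Saa2, Saa3, Hpx, Crp, Apcs and C3, and not for Hp, Orm1 and Lbp. Both strands were searched for letters read by factors of the acute phase. The C/EBP letters TTGCNNAA occurred in 5 of these 7, Saa1, Saa2, Saa3, Hpx and C3, and in 10.8% of the 32851 promoters of the table. The STAT letters TTCNNNGAA (8.30% of all promoters) and the interleukin 6 element CTGGGAA (11.1%) occurred in Apcs alone, the STAT letters from base -244 and the element from bases -129 and -52. The NF-kappaB letters GGANTTTCC (1.25% of all promoters) and the HNF1 letters GTTAATNAT (0.801%) were in none of the 7. A match describes the letters of the window only. The 60 bases around each C/EBP match are shown on the strand of the gene, with the match in capitals, because the serum amyloid genes lie in a cluster on chromosome 7 and yet differed in their signals. The windows are chr7:46743129-46743188 (minus) for Saa1, chr7:46751624-46751683 (plus) for Saa2, chr7:46715742-46715801 (minus) for Saa3, chr7:105600283-105600342 (minus) for Hpx and chr17:57228148-57228207 (minus) for C3, and the capitals start at bases -182, -183, -99, -200 and -45.
Saa1: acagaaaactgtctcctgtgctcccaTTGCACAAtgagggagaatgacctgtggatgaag
Saa2: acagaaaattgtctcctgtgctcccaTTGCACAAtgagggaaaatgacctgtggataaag
Saa3: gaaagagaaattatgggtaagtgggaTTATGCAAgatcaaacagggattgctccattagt
Hpx: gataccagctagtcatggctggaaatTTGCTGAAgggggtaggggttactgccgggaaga
C3: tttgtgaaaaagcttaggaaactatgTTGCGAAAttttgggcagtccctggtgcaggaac
Over the whole 300 bases the aligned promoters of Saa1 and Saa2 shared 287 bases (95.7%), and those of Saa1 and Saa3 shared 165 (55.0%).

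Levels are log2 processed signals from which the 75th percentile of each array was subtracted, so that 0 is the 75th percentile, and each level is compared only with the same probe on another array. The 75th percentile was 676 on CF, 893 on MF, 628 on CM and 925 on MM, and 56.1% to 65.3% of spots were well above background. Probes repeated in 10 spots varied by 0.25 to 0.33 within an array (root mean square of the SDs per probe, log2). For a difference between 2 arrays of a probe in 1 spot this corresponds to 0.41 between M and C of either sex. The value was 0.44 between the C arrays and 0.38 between the M arrays. Only probes with every kept spot well above background entered, so probes not well above background are not covered. These spot spreads hold technical error only. The hepatocyte markers were well above background on all arrays (10 of 10 genes), and no member was saturated. CF stood apart from the other arrays in heart muscle markers and MF in intestinal, macrophage and neutrophil markers, whose values are given with the marker sets.

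Between M and C the group did not move as a block (the plot of levels by array). Of the 11 probes, 4 were over 1.5-fold higher in MF vs CF (Saa3, Crp, Lbp and the C3 probe in 10 spots), where 19.1% of all 34972 probes were, and 2 were lower (Saa2 and Orm1), where 22.3% were. In MM vs CM none was higher, against 17.6% of all 36585 probes, and 3 were lower (Saa1, Saa3 and Orm1), against 23.3%. By gene, each at its brightest probe, 4 of 10 were higher and 2 lower in MF vs CF, with 19.9% and 21% of all genes in these classes, and 0 and 3 of 10 in MM vs CM, with 17.5% and 23.1%. The median over the 10 genes was -0.22 in MF vs CF and -0.29 in MM vs CM, and over all genes it was -0.06 and -0.02. Orm1 was the only member past 1.5-fold the same way in both sexes; 3.8% of all genes compared in both were lower in both and 3.14% were higher in both. The split of the calls depended on the scaling: quantile normalization gave 2 higher and 5 lower probes in MF vs CF, normexp background correction of signals that are not detrended, followed by quantile normalization (named normexp with quantile normalization from here on), gave 2 and 4, and unscaled signals gave 2 higher and 1 lower in MM vs CM.

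**Figure D1:**
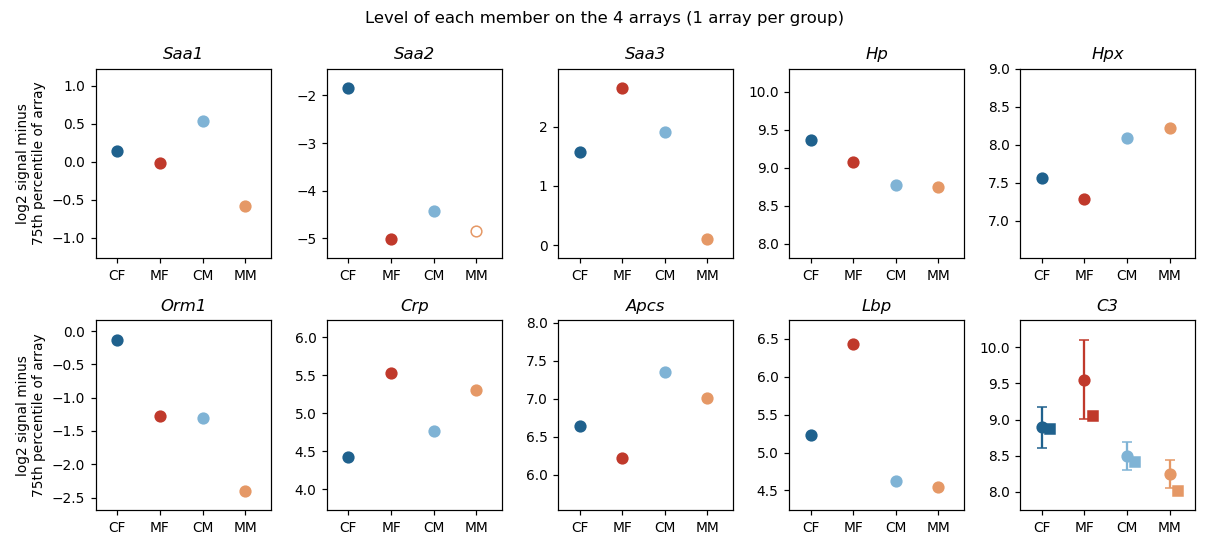
Each panel plots 1 member, with the array on the x axis (CF, MF, CM, MM, 1 array each) and the log2 signal minus the 75th percentile of the array on the y axis; the range of the y axis differs between panels. The open circle is a probe not well above background, the squares are the second C3 probe, and the bars on C3 are the SD over its 10 spots. Lbp reached 6.43 on MF against 4.55 to 5.23 on the other arrays, and Saa2 reached -1.85 on CF against -5.01 to -4.42.

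Among members above background on all arrays, Crp and Orm1 differed in the same direction in both sexes by more than the spot spread. Crp, a pentraxin that binds phosphocholine on microbes and dying cells, had levels of 4.42 on CF against 5.53 on MF, and 4.77 on CM against 5.31 on MM. Both M arrays lay above both C arrays. Crp was 2.16-fold higher in MF vs CF (1.11 on the log2 scale) and 1.46-fold higher in MM vs CM (0.54), the second value being just inside the 1.5-fold line. Its log2 difference stayed above 0 under all alternatives, from 0.65 to 1.51 in females and from 0.34 to 1.17 in males. It passed 1.5-fold in males with normexp with quantile normalization (1.16), with the signals taken before detrending (1.17), with centring on the array median (0.78) and without scaling (1.10).

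Orm1, a plasma carrier of basic and neutral lipophilic ligands, gave -0.13 on CF against -1.27 on MF, and -1.31 on CM against -2.40 on MM. CF was highest and MM lowest, with MF and CM between them and 0.04 apart. Orm1 was 2.20-fold lower in MF vs CF (-1.14) and 2.12-fold lower in MM vs CM (-1.09). The difference was negative under all alternatives, between -1.34 and -0.74 in females and between -2.05 and -0.53 in males, where the unscaled signals (-0.53) fell short of 1.5-fold. The detrending ratio at this spot, by which the signal is divided, was 1.34 on CM against 0.528 to 0.697 on the other arrays, so that before detrending CM lay 0.06 below CF and MM 2.05 below CM. The paralogue Orm2, which closely resembles Orm1 and may share its signal, was lower as well, with differences of -1.05 in females and -0.66 in males that were -0.21 and -0.56 with normexp with quantile normalization.

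The serum amyloids did not move together. Saa3, a form made by macrophages and epithelia more than by hepatocytes, was at 1.57 on CF against 2.65 on MF, and at 1.91 on CM against 0.11 on MM. MF was the highest array and MM the lowest, with the C arrays 0.34 apart. Saa3 was 2.12-fold higher in MF vs CF (1.08) and 3.50-fold lower in MM vs CM (-1.81), opposite directions that held under all alternatives (0.89 to 1.48 in females and -2.17 to -1.25 in males). With 1 array a group the difference between the sexes was not tested.

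Saa1, a main acute phase amyloid carried on high density lipoprotein, was at 0.15 on CF against -0.01 on MF, and at 0.54 on CM against -0.58 on MM. It was 2.17-fold lower in MM vs CM (-1.11), while MF and CF differed by -0.16, less than the spot spread. Without scaling the value in males was -0.56, inside 1.5-fold. Saa2, its near-identical neighbour, was at -1.85 on CF against -5.01 on MF, and at -4.42 on CM against -4.85 on MM. Only CF stood clear of the background, since the lowest signals well above background were -5.48 on CF, -5.98 on MF, -4.62 on CM and -5.65 on MM, and Saa2 on MM was not well above it. Saa2 was 8.95-fold lower in MF vs CF (-3.16), which shrank to -1.29 with normexp with quantile normalization. In MM vs CM its difference was a bound, at least 1.35-fold lower (-0.43), which moved with the scaling: it was -0.19 with centring on the median, -0.18 with quantile normalization and -1.32 before detrending, and the unscaled signals gave no fold. Transcripts of Saa1 and Saa2 are so alike that a probe may also hold signal of the other gene, which was not tested. On MF, MM and CM the Saa2 probe gave processed signals of 27.8, 32.1 and 29.4, where the Saa1 probe gave 884, 620 and 911.

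Lbp, which passes lipopolysaccharide to CD14, was at 5.23 on CF against 6.43 on MF, and at 4.62 on CM against 4.55 on MM. MF stood alone, 1.20 above the next array. Lbp was 2.29-fold higher in MF vs CF (1.20) and differed by -0.07 in MM vs CM. Quantile normalization brought the value in females to 0.57 and normexp with quantile normalization to 0.46, both inside 1.5-fold.

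**Figure D2:**
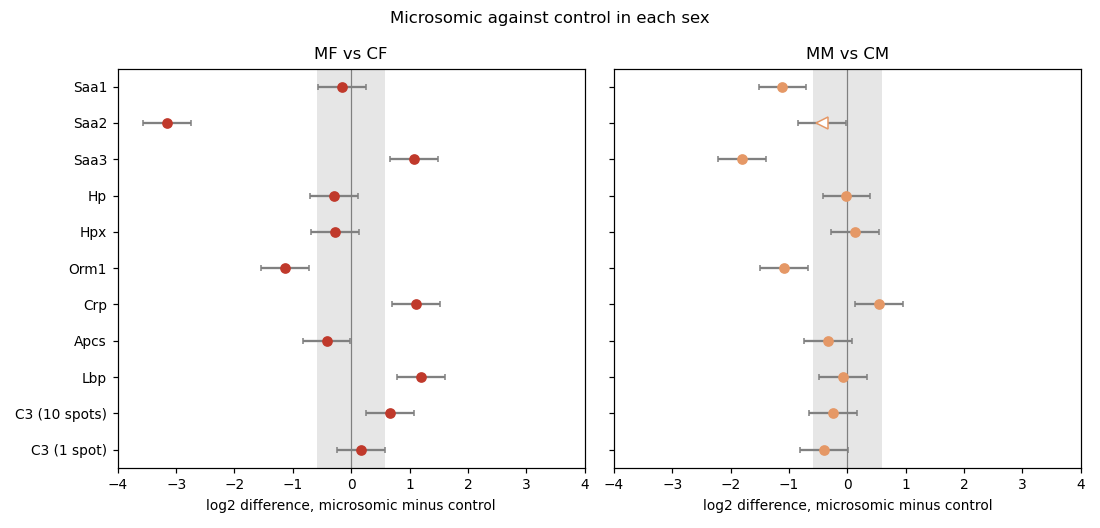
The x axis is the log2 difference of microsomic minus control, for females on the left and males on the right, and each row is a member probe. The grey band is within 1.5-fold, the bars are the SD of a difference between single spots (0.41, technical only), and the open triangle is a bound. Orm1 lies left of the band in both panels, and Saa3 lies right of it in females and left of it in males.

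C3 was measured by 2 probes, of which 1 passed 1.5-fold in females. The probe in 10 spots gave 8.89 ± 0.29 on CF, 9.55 ± 0.55 on MF, 8.50 ± 0.19 on CM and 8.25 ± 0.20 on MM (SD over 10 spots of 1 array). The probe in 1 spot gave 8.88 on CF, 9.05 on MF, 8.42 on CM and 8.02 on MM. MF vs CF was therefore 1.58-fold higher (0.66) by the first and 1.13-fold higher (0.17) by the second, and MM vs CM was -0.25 and -0.40. On MF the 10 spots ranged from 8.97 to 10.38. Before processing the same spots gave mean signals of 616050 to 726105, an SD of 0.08 on the log2 scale. On CF the spots of this probe gave 215659 to 416149. The highest mean signal of any spot on MF was 777960, and 22 spots of that array were saturated. Whether the top of the scale limited C3 on MF was not tested. Feature Extraction divides each spot by a detrending factor, a ratio that models uneven hybridization over the array. On the 10 spots of MF the ratio ran from 0.517 to 1.56. The probes that set the spot spread had a larger SD within an array (root mean square) before detrending (0.40 to 0.61) than after it (0.25 to 0.33). C3 went the opposite way on MF (0.08 before and 0.55 after) and, by less, on MM (0.13 and 0.20). On CF (0.34 and 0.29) and CM (0.28 and 0.19) it did not. With signals before detrending MF vs CF was 0.65 by the first probe and 0.55 by the second. Quantile normalization gave 0.01 and -0.56, and normexp with quantile normalization gave 0.22 and 0.04.

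**Figure D3:**
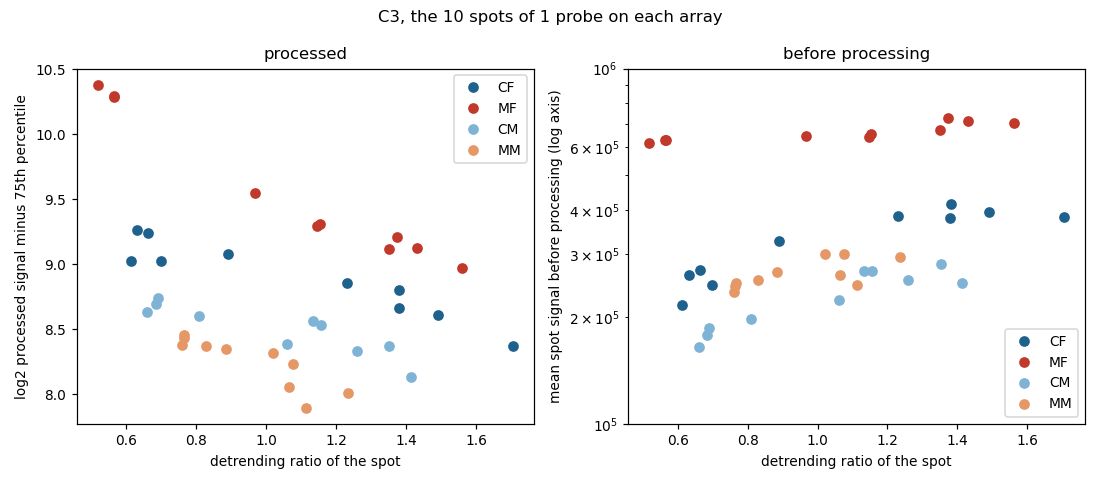
Each point is 1 of the 10 spots of the C3 probe on 1 array, against the detrending ratio of the spot on the x axis. The y axis is the log2 processed signal minus the 75th percentile on the left, and the mean spot signal before processing, on a log axis, on the right. On MF the processed level runs from 10.38 at the lowest ratio to 8.97 at the highest, while the signal before processing stays between 616050 and 726105.

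The remaining members stayed inside 1.5-fold between M and C. Hp, which captures free haemoglobin, was at 9.36 on CF against 9.07 on MF, and at 8.77 on CM against 8.75 on MM, differences of -0.29 and -0.02. Hpx, which captures free haem, was at 7.56 on CF against 7.29 on MF, and at 8.09 on CM against 8.22 on MM, differences of -0.27 and 0.13. Apcs, the serum amyloid P pentraxin, was at 6.64 on CF against 6.21 on MF, and at 7.35 on CM against 7.02 on MM, differences of -0.42 and -0.33. For Hp and Hpx these differences were within the spot spread, and for Apcs in females the difference was about equal to it. Under quantile normalization Hp (-0.96), Hpx (-1.05) and Apcs (-1.12) were lower in MF vs CF by more than 1.5-fold. With normexp with quantile normalization the same differences were -0.48, -1.28 and -1.42, and Apcs was at -0.67 before detrending. In males Hp was at -0.84 before detrending.

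Between the sexes, Lbp, Orm1 and C3 were lower in males and Hpx higher in males in both classes, in comparisons that use the same 4 arrays. In C, the differences of C3 and Hpx were inside 1.5-fold. Among the 11 probes 1 was over 1.5-fold higher in CM vs CF (28% of all 34410 probes) and 4 were lower (18.9%). The comparison MM vs MF had 2 higher (31.5% of all 37261 probes) and 5 lower (18.6%). Centring on the median gave 0 higher and 6 lower in CM vs CF, and quantile normalization gave 3 and 3 in MM vs MF. Apcs was 1.64-fold higher in males in C and 1.74-fold in M, but in C its log2 difference of 0.71 was -0.10 with normexp with quantile normalization and -0.03 before detrending. In M the Apcs difference of 0.80 was 0.52 with centring on the median and 0.43 before detrending, both inside 1.5-fold. Hpx was higher in males by 1.44-fold in C and 1.90-fold in M, and in C the log2 difference of 0.52 was 0.11 with centring on the median. Lbp was lower in males by 1.53-fold in C and 3.68-fold in M, and both kept their direction under the scalings tried (log2 from -1.03 to -0.58 in C and from -2.16 to -1.01 in M). Orm1 was lower by 2.26-fold in C and 2.18-fold in M, and in C the log2 difference of -1.18 became -0.23 with normexp with quantile normalization and -0.06 before detrending. In M the Orm1 difference of -1.13 became -0.54 with normexp with quantile normalization, inside 1.5-fold. C3 was lower in males by 1.32-fold in C and 2.47-fold in M with the probe in 10 spots, and by 1.37-fold and 2.05-fold with the other. With normexp with quantile normalization the values in C were log2 -0.32 and -0.20. Quantile normalization reduced the values in M to log2 -0.34 and -0.01. Saa2 was 5.95-fold lower in CM vs CF, with no fold in MM vs MF, where MM was not well above background, and Hp was 1.51-fold lower in CM vs CF. That Hp difference, -0.59 on the log2 scale, was -0.57 with quantile normalization, -0.10 with normexp with quantile normalization and -0.13 before detrending, each inside 1.5-fold. Saa3 was 5.85-fold lower in MM vs MF (log2 from -2.98 to -2.50 under the scalings tried), and in CM vs CF its difference of 0.34 was within the spot spread.

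The test over all 4 arrays took the sexes as replicates of M and C. limma with sex as a second term, which left 1 residual degree of freedom, was fitted to the 25040 probes well above background on all arrays, 10 of them member probes (Saa2 was not). For M vs C limma gave 0 probes with an adjusted p under 0.05 (smallest adjusted p = 0.657) and 1124 (4.49%) with an unadjusted p under 0.05. Of the members, Orm1 alone was among the latter, with a log2 difference of -1.11 ± 0.42 (SE, limma unadjusted p = 0.0279, adjusted p = 0.998), lower in M in both sexes. Crp followed at 0.83 ± 0.43 (limma unadjusted p = 0.0894, adjusted p = 0.998), higher in M in both. For sex limma again gave 0 probes (smallest adjusted p = 0.0703) and 2469 (9.86%) with an unadjusted p under 0.05, including Lbp at -1.25 ± 0.47 (limma unadjusted p = 0.0293, adjusted p = 0.471) and Orm1 at -1.15 ± 0.42 (limma unadjusted p = 0.0240, adjusted p = 0.457), both lower in males.

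The other genes of the pathways were counted the same way, each at its brightest probe. Of 25 other positive acute phase genes, 5 were higher and 8 lower among 24 compared in MF vs CF (median 0.06), and 5 were higher and 9 lower among 23 in MM vs CM (median -0.32). Quantile normalization gave 1 higher and 12 lower in females (median -0.59), and the unscaled signals gave 9 higher and 2 lower in males (median 0.24), so neither direction held. Mt1, which encodes the metal binding protein metallothionein 1, was higher in both sexes (0.95 and 0.85). Hamp2, a relative of the iron hormone hepcidin (-1.87 and -0.77), Orm2, and Lrg1, a secreted leucine rich glycoprotein (-0.84 and -0.76), were lower in both. These 4 kept their direction in both sexes under the scalings tried, with values down to 0.29 for Mt1 and up to -0.10 for Orm2. Of 11 negative acute phase genes, 1 of the 10 compared was higher and 1 lower in females, and 1 was higher and 3 lower in males.

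In complement, the classical and lectin components had 5 of 14 genes higher and 0 lower in MF vs CF (median 0.41) and 3 higher and 2 lower in MM vs CM (median 0.01). In females the count of lower genes was 0 under each scaling and the median ran from 0.30 to 0.82; in males the median was -0.26 with normexp with quantile normalization and 0.57 without scaling. Mbl2, which encodes a mannose binding lectin that starts the lectin pathway, was higher in both sexes (6.97 on MF against 5.98 on CF, and 1.29 above CM on MM), but was only 0.26 higher in females with quantile normalization. Of the alternative pathway, Cfb and Cfp were higher in females (0.59 and 0.85) and inside 1.5-fold in males (0.14 and 0.07), Cfb turned to -0.21 in females with quantile normalization, and Cfd was not well above background on any array. The terminal components had 1 higher and 1 lower of 6 in females and 1 higher and 0 lower in males. Regulators and receptors had 3 higher and 2 lower of 15 in females and 2 higher and 3 lower in males. In males these became 7 higher and 2 lower with normexp with quantile normalization and 10 and 0 without scaling, and in females 1 and 5 and 6 and 1, so neither direction held. C4bp, whose product limits the classical pathway convertase, was lower in both (-1.14 and -1.05) and negative under each scaling.

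The cytokines and transcription factors that induce the acute phase had 8 of 22 genes higher and 4 lower in MF vs CF (median 0.31) and 4 higher and 2 lower in MM vs CM (median 0.09). With quantile normalization the median in females was -0.04. Il6 was well above background on both M arrays (-3.56 and -2.97) and on neither C array, at least 2.44-fold higher in females (1.29) and at least 1.41 higher on the log2 scale in males. With normexp with quantile normalization these were 0.21, inside 1.5-fold, and 0.70. Hnf4a, a hepatocyte transcription factor, was higher in both sexes (0.64 and 1.01), but was at -0.09 in females with quantile normalization. The partners of lipopolysaccharide, haemoglobin and haem binding, among them Cd14 and Hmox1, had 2 higher and 2 lower of 8 in females and 1 higher and 3 lower in males. These shares stand beside the 19.9% and 21% of all genes in females and the 17.5% and 23.1% in males given above.

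**Figure D4:**
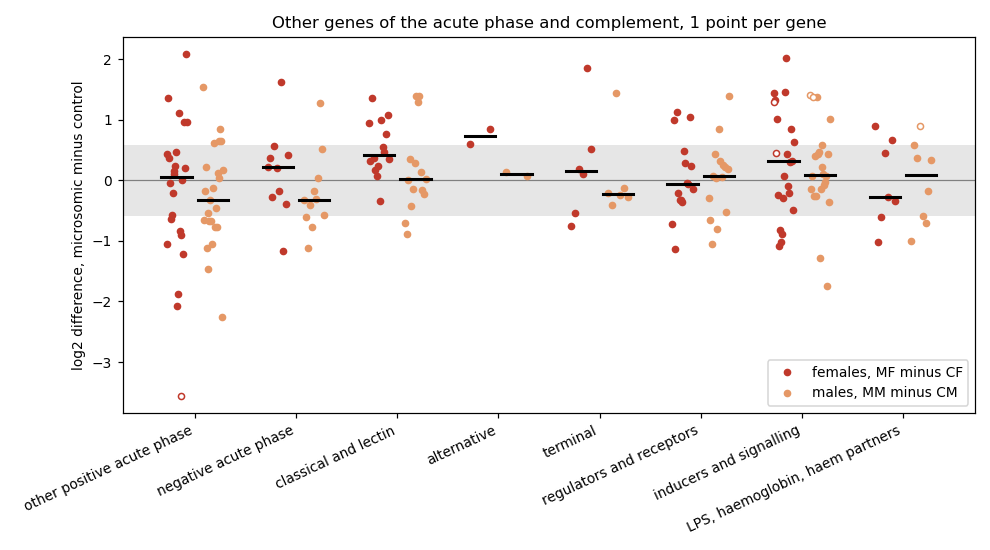
Each point is a gene other than the members, grouped by pathway on the x axis, with the log2 difference of microsomic minus control on the y axis, females in red and males in orange. Open points are bounds, black bars are medians and the grey band is within 1.5-fold. The classical and lectin components in females have a median of 0.41 and no gene below the band.

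Markers of other cells and organs moved with some of these values, and their part in them was not tested; in whole liver, fewer cells of a type and less RNA per cell cannot be told apart. Saa3, Crp, Lbp and C3 were highest on MF, and Saa2, Hpx and Apcs lowest. In MM vs MF Crp differed by -0.22, within the spot spread. That became 0.30 with quantile normalization, 0.80 with normexp with quantile normalization and 0.24 before detrending. Saa2 was not well above background on MM, so which M array was lower was not resolved. Hpx in MF vs CF was within the spot spread (-0.27) and was 0.13 without scaling. On MF 8 of 10 macrophage and Kupffer cell markers and 9 of 10 neutrophil markers were over 1.5-fold higher than on CF. Their summed signal, relative to the 75th percentile, was 313 on MF against 136 to 159 on the other arrays for macrophages and 1953 against 939 to 1277 for neutrophils. With quantile normalization 4 of 10 macrophage and 4 of 10 neutrophil markers were higher. Csf1r, the growth factor receptor of macrophages, was 1.89 higher, and Ngp, a protein of neutrophil granules, 2.47 higher. C1qa is on the macrophage list as well as in the classical pathway. Vsig4 is on it and among the complement regulators and receptors. In males 2 macrophage markers were higher and 1 lower, and 0 neutrophil markers were higher and 2 lower.

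Intestinal markers were also highest on MF, with 7 of 10 compared over 1.5-fold higher than on CF (median 4.38) and a summed signal of 255 against 124 to 141 on the other arrays. The brightest of them, Tff3, weighs most in that sum and differed by 0.35 in MF vs CF. In MM vs CM 1 of 7 was higher and 4 were lower. Fabp2 was higher in both sexes, by 8.85-fold in females and 5.22-fold in males. Vil1, an actin binding protein of the brush border, was 4.38 higher, and the homeobox gene Cdx1 was not well above background on either C array. Saa2, Orm1 and Hp were highest on CF, and Crp lowest. Hp in MF vs CF (-0.29) and Crp in CM vs CF (0.35) were within the spot spread. With centring on the median Crp in CM vs CF was -0.07. Of 7 heart muscle markers compared, 6 were lower in MF than in CF (median -6.78). The heart muscle markers summed to 114 on CF against 2.41 to 5.20 elsewhere. Actc1, the cardiac actin, stood at 5.59 on CF and between -3.44 and -0.56 on the other arrays, and Myh6, the cardiac myosin, was not well above background on either M array. Hepatocyte markers had 1 of 9 higher and 1 lower in MF vs CF and 1 of 10 higher and 5 lower in MM vs CM. Quantile normalization gave 0 higher and 4 lower in females (median -0.49) and 0 lower in males, and the signals before detrending gave 7 lower in males. Alb, Ttr, Apoa1 and Ahsg are also on the negative acute phase list, and Serpina1a and Fgb on the positive one. The hepatocyte counts are therefore not independent of the pathway counts. The hepatocyte markers had a summed signal of 4200 on MM against 5859 to 6509 elsewhere. Saa1, Saa3, Orm1, Hp, Lbp and C3 were also lowest on MM. For Hp, Lbp and the C3 probe in 10 spots the differences from CM were within the spot spread (-0.02, -0.07 and -0.25). Without scaling they turned positive (0.54, 0.49 and 0.31). Hpx was highest there (8.22), Apcs (7.02) was below CM alone, and Crp (5.31) was below MF alone. The differences of Hpx and Apcs from CM (0.13 and -0.33) and of Crp from MF (-0.22) were within the spot spread. Erythroid markers and markers of fat and mesenchyme summed highest on CF (3014 and 93.5) and lowest on MM (1678 and 48.2). Orm1 was also highest on CF and lowest on MM. Hp had the same order only by differences within the spot spread (-0.29 in MF vs CF and -0.02 in MM vs CM). Without scaling both Hp differences turned positive (0.11 and 0.54). Exocrine pancreas markers summed to 4.77 on MF and 2.28 on MM, with 3.04 on CF and 3.90 on CM; 3 of 6 were higher in MF vs CF and 4 of 6 lower in MM vs CM.

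**Figure D5:**
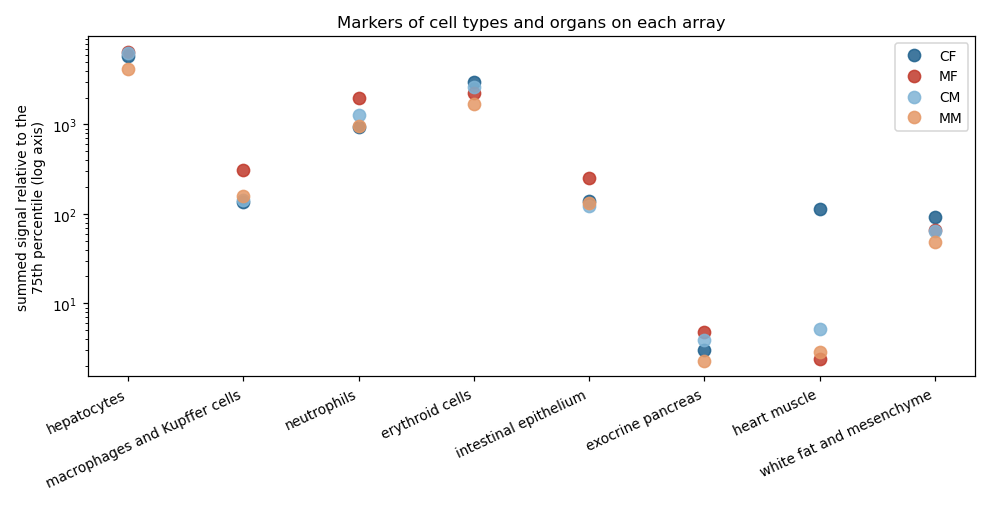
The x axis lists the marker sets of cell types and organs, and the y axis is the summed signal of each set relative to the 75th percentile of the array, on a log axis; each point is 1 array. Heart muscle markers reach 114 on CF and 2.41 to 5.20 on the other arrays, and macrophage markers reach 313 on MF.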

How the data were processed

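Scans were read by the authors in Agilent Feature Extraction 10.7.3.1. The processed signal they deposited is an intensity on a linear scale, background subtracted and divided by a detrending factor. That factor is a ratio deposited for each spot. The deposited table equals the processed signal in all 62976 spots and was not normalized between arrays.

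Processed signals were log2 transformed and the 75th percentile over non-control spots was subtracted. A spot flagged as an outlier on 1 array was dropped from all 4, and spots of a probe were averaged. A probe counted as well above background when a share of its spots above 0.5 was. A probe well above background on both arrays compared gave a difference, on 1 of them a bound, and on neither no value; differences were called past 1.5-fold. limma 3.58.1 (R 4.3.3) used Benjamini-Hochberg adjustment and was tested on simulated data. All members were named; other genes were named when past 1.5-fold the same way in both sexes, and markers by brightness or size. Cfb, Cfp, Cfd, Cd14 and Hmox1 were named outside this rule after their values were seen. Members and lists were chosen with earlier results of these data known. Alternatives covered scaling, background correction, filters, GC content, position and fold threshold. Normexp started from the mean spot signals, which are not detrended, and was followed by quantile normalization. The signals before detrending were added after the data were seen.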

Additional observations from a re-analysis of the deposited data

Results flagged for a closer look

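Saa3 was flagged because its M vs C difference had opposite directions in the sexes, 1.08 in MF vs CF and -1.81 in MM vs CM on the log2 scale. With 1 array a group this difference between the sexes was not tested.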

How the results depend on the processing

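Of 219 member values for MF vs CF and MM vs CM recomputed under the alternatives, 190 moved by less than the spot spread, 29 moved by more and 0 called values changed direction. In CM vs CF the called value of Apcs did, from 0.71 to -0.10 with normexp with quantile normalization and to -0.03 before detrending. The 190 include values that could not move. No member probe was flagged, the filters on dim probes could act on Saa2 in MM vs CM alone, and averaging probes acted on C3 alone. The probe count in MM vs CM went from 3 to 6 (1 higher, 5 lower) with signals before detrending, which added Saa2, Hp (-0.84) and Crp (1.17). In CM vs CF it went from 5 to 3 with quantile normalization and to 2 with normexp with quantile normalization, with signals before detrending and with a 2-fold threshold; the cause was not tested. The median over the member genes in MM vs CM was 0.27 without scaling, where the median of all probes moved by 0.56 (0.40 in MF vs CF); centring on the array median moved it by 0.24 and 0.10. limma gave 0 member probes under every alternative, for M vs C (smallest adjusted p = 0.313, unscaled) and for sex (0.17, centred on the median). Over all probes it gave up to 36 for M vs C and up to 244 for sex at the adjusted threshold. At the threshold of the methods (unadjusted p under 0.01 with 1.5-fold) limma gave 210 and 638, none of them members. No paired analysis was possible because the labels give no replicate numbers; sex was a term of the limma fit instead. No array was left out, since each group holds 1.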
